A study of Homo sapiens with 12 samples.

Results

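Long intergenic noncoding RNAs named with a LINC symbol were followed in the diffuse large B-cell lymphoma (DLBCL) cell line SU-DHL-4, and those with a well-measured level are described here. They were selected on their measured level: every gene whose symbol starts with LINC and whose mean over all 12 libraries was 0 or higher in the deposited table of log2 CPM, which are counts scaled to the size of the library. This gave 120 of the 178 LINC genes of that table, which holds 16226 genes in all, and the other 58 lay below the limit. All 120 passed the filter on low counts of the model, which tested 16835 genes. Polyadenylated RNA was sequenced after 72 h in 4 groups of 3 libraries. The cells received DMSO as vehicle control, 1 µM Ento (Entospletinib, which inhibits the tyrosine kinase SYK), 0.01 µM AZD (AZD5153, a bivalent inhibitor of bromodomain and extra-terminal domain (BET) proteins), or Ento+AZD at these concentrations. All libraries came from this 1 cell line, labelled wild type and established from a peritoneal effusion, so that by their labels the groups differ in exposure alone, and the submitters describe the replicates as biological.

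LINC symbols are given to noncoding transcripts that lie between protein-coding genes. Like messenger RNAs they are transcribed by RNA polymerase II and are usually spliced and polyadenylated, but most have low levels and no known function, while some act on chromatin or on the transcription of genes close by. SYK relays signals of the B-cell receptor, and BET proteins bind acetylated histones at promoters and enhancers and help RNA polymerase II to elongate.

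The name intergenic held for part of the genes only. In the GENCODE v44 annotation of GRCh38, 115 of the 120 were found, and 107 of these carried the biotype lncRNA. Of the 115, 60 had no exon in common with another gene, 44 overlapped exons of a gene on the opposite strand and 27 overlapped exons of a gene on the same strand. The body of 25 overlapped a protein-coding gene. For 13 the start lay within 2000 bases of that of the nearest protein-coding gene, which is encoded on the opposite strand. Only the nearest gene was examined, so such starts next to other genes are not in this count. Since the use of the strand in counting is not given in the sources used here, counts of overlapping genes cannot be told apart. Windows of the read length of 75 bases were compared with the transcripts of all genes of another symbol. Of the genes, 8 shared most of their windows with another gene, so that their counts are uncertain, whereas 52 shared none. Copies under the same symbol were not compared. LINC00106 and LINC00685, which lie in the pseudoautosomal region of X and Y, are therefore among the 52, though their counts are uncertain too. LINC01238, also among the 52, has another GENCODE gene of the same symbol, with which it was not compared. It also lies within the body of LINC01237 on the same strand, without an exon in common.

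Promoters are shown for 4 of the genes whose changes are described further on, as examples of start regions that differ in base composition. They run from 250 bases before to 50 after the RefSeq start, on the strand of the gene, in GRCh38.p14. For LINC00598 and LINC02352 the GENCODE gene body starts farther upstream (chr13:40079106-40535807 and chr15:31215622-31224445), so that their windows lie inside it. LINC01991 (chr3:187976358-187976657, minus strand) was higher with Ento, LINC02352 (chr15:31215771-31216070, plus strand) was higher with AZD and with Ento+AZD, and LINC00598 (chr13:40480955-40481254, minus strand) and LINC01521 (chr22:31346509-31346808, plus strand) had their highest levels with Ento+AZD. Capitals mark matches to the motifs searched.
LINC01991: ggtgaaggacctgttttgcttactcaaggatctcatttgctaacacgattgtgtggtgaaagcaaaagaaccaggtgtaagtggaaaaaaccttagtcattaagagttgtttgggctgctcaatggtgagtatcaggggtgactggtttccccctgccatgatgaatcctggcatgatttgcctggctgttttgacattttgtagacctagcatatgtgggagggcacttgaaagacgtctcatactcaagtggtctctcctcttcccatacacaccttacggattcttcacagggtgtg
LINC02352: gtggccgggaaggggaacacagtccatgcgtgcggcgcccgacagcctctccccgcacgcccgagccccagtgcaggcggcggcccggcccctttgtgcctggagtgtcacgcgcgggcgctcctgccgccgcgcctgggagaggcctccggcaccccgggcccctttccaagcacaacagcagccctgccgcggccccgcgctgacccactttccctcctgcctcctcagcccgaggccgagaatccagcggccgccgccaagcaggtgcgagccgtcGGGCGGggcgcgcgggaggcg
LINC00598: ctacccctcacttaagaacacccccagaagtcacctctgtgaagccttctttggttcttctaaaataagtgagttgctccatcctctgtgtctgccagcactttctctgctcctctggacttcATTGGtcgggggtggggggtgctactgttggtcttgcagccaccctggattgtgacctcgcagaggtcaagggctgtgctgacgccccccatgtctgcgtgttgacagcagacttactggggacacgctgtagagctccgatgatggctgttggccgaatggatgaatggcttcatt
LINC01521: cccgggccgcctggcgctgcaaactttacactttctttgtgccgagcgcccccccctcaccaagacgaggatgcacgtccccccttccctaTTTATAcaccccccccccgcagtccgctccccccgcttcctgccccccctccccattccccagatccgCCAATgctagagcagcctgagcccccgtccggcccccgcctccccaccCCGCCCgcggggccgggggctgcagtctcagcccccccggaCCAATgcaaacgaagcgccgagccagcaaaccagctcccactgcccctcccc

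The GC content of these windows was 46.0% for LINC01991, with 3 CpG dinucleotides, 76.3% for LINC02352 with 37, 54.3% for LINC00598 with 7 and 70.7% for LINC01521 with 22. The start of LINC01521 lies 431 bases from that of PATZ1, a zinc finger transcription factor encoded on the opposite strand. Motifs were searched on both strands, each by itself and without regard to overlap with another motif. LINC01991 held no match, LINC02352 held a GC box (GGGCGG), LINC00598 held a CCAAT box (CCAAT), and LINC01521 held a TATA box (TATAAA), 2 CCAAT boxes and a GC box. RefSeq promoters were found for 65 of the 120 genes, 76 windows in all. A GC box was in 52.6% of these and in 45.0% of all 34961 promoters, a CCAAT box in 46.1% and 34.6%, and a TATA box in 15.8% and 11.5%. The other motifs searched were in fewer windows, namely E-box (CACGTG, 11.8% and 7.27%), AP-1 (TGACTCA, 7.89% and 4.92%), ETS (CCGGAAGT, 6.58% and 4.14%), forkhead (TGTTTAC, 2.63% and 3.42%), CRE (TGACGTCA, 2.63% and 1.85%) and E2F (TTTCCCGC, 2.63% and 1.64%). The median GC content of the windows was 58.2% for these genes and 58.7% for all promoters. These are matches of letters, and nothing on binding was measured.

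Libraries held 18121993 to 24675830 counts, and 1 count was worth 0.0393 to 0.0564 CPM. All 6 B cell markers and all 5 germinal centre markers looked at were expressed at 1 CPM or more, among them MS4A1, PAX5 and BCL6. Of the markers of other cells, the T cell list summed to 1.60 to 7.78 CPM per library, with 5.34 to 6.28 CPM with DMSO, 1.60 to 3.34 CPM with AZD and 1.62 to 2.54 CPM with Ento+AZD, and only CD3E and TRAC reached 1 CPM while CD3D and CD2 were at 0. The monocyte list came to at most 2.72 CPM and the epithelial list at or under 0.113 CPM. Of the mesothelium and fibroblast list only DCN was expressed, at 37.0 to 126 CPM, and COL1A2 was at 0. Their part in the results was not tested. Libraries of the same replicate number deviated together from their group means, so the replicate number was a term of the model, called the replicate term.

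The 120 genes together took 0.108 ± 0.00133% of all counts with DMSO (SD, n = 3), 0.116 ± 0.0112% with Ento, 0.101 ± 0.00854% with AZD and 0.119 ± 0.0164% with Ento+AZD. These ranges overlap, and this share, whose members were selected on their level, got no test. The mean levels of the genes ran from 0.03 to 6.42 on the log2 CPM scale with a median of 2.18. Their median level was 4.63 CPM, against 15.9 CPM for all genes tested. Just inside the limit lay LINC00526 with a mean of 0.08, LINC00663 with 0.04 and LINC01749 with 0.03 (log2 CPM), and just outside it lay LINC02656 with -0.003, LINC02853 with -0.05 and LINC02043 with -0.06. A mean of 1 CPM or more was reached in all 4 groups by 106 of the 120 genes, and only 5 had a mean under 1 CPM with DMSO. None of the 120 was at or under 3 counts in every library of a group.

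More of these RNAs were overexpressed than underexpressed after Ento+AZD. Compared to DMSO, 34 of 120 rose and 10 fell (quasi-likelihood F-test of edgeR, Benjamini-Hochberg adjusted p under 0.05 over all genes tested), which is 28.3% and 8.33%. Over all genes tested, 19.2% rose and 20.8% fell. The median log2 fold change of the 120 genes was 0.20 and that of all genes 0.01, and 69.2% of the 120 had a positive value against 51.1% of all genes. Differentially expressed genes (DEGs), which also had to change by over 1 on the log2 scale, numbered 13 overexpressed and 4 underexpressed, or 10.8% and 3.33% against 3.43% and 4.89% of all genes. The lower level of these genes moves with this result, and its part in it was not tested. Without the replicate term, 17 of the 44 calls were kept, 13 higher and 4 lower.

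Ento as single agent also raised more of the genes than it lowered. It raised 17 of the 120 genes (14.2%) and lowered 3 (2.5%), where 4.66% and 3.66% of all genes were called, and the median log2 fold change was 0.15 against 0.01 for all genes. DEGs with Ento were LINC02532, LINC02666 and LINC01991, all overexpressed, and LINC00643 and LINC01749, both underexpressed, which is 2.5% and 1.67% against 1.10% and 0.535% of all genes. The count of 20 calls fell to 6 without Ento replicate 2, 7 without Ento replicate 1, 10 without Ento replicate 3, and 13 without DMSO replicate 2, AZD replicate 2 or Ento+AZD replicate 1. Without the replicate term 0 genes were called by edgeR, 19 of the 120 having an unadjusted p under 0.05, while DESeq2 with the replicate number called 14.

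AZD as single agent moved the genes in both directions alike. Of the 120, 12 rose (10.0%) and 13 fell (10.8%), against 9.57% and 12.7% of all genes, and the median log2 fold change was 0.03 for the 120 and 0.01 for all genes. LINC02352 was the overexpressed DEG, and LINC01749, LINC02099, LINC01754, LINC00643 and LINC02006 were the underexpressed ones, so that 0.833% and 4.17% of the 120 were DEGs against 0.659% and 2.53% of all genes. The 25 calls came to 11 without AZD replicate 2 and 16 without AZD replicate 3, and to 3 without the replicate term. The 3 exposures share their DMSO libraries, so their counts are given side by side only, and 64 of the 120 genes (53.3%) passed in none of them, against 54.1% of all genes.

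**Figure D1:**
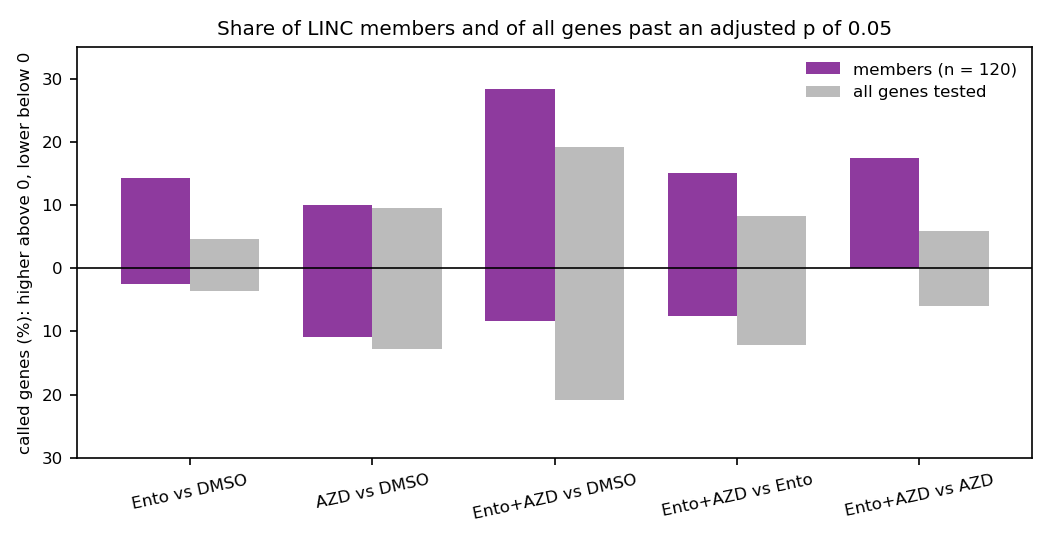
The bars give the share of genes, in percent, that were higher (above 0) or lower (below 0) at an adjusted p under 0.05 in each of 5 comparisons, for the 120 LINC genes and for all genes tested. With Ento+AZD against DMSO 28.3% of the LINC genes were higher and 8.33% lower, against 19.2% and 20.8% of all genes.

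The distribution of the fold changes shows the same shift without a threshold. With Ento+AZD the quartiles of the 120 genes lay at -0.12, 0.20 and 0.54 on the log2 scale, and those of all genes at -0.29, 0.01 and 0.29. With Ento they lay at -0.09, 0.15 and 0.45, against -0.15, 0.01 and 0.18. With AZD they lay at -0.30, 0.03 and 0.26, against -0.24, 0.01 and 0.20, so that the 120 genes spread a little wider around nearly the same middle.

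**Figure D2:**
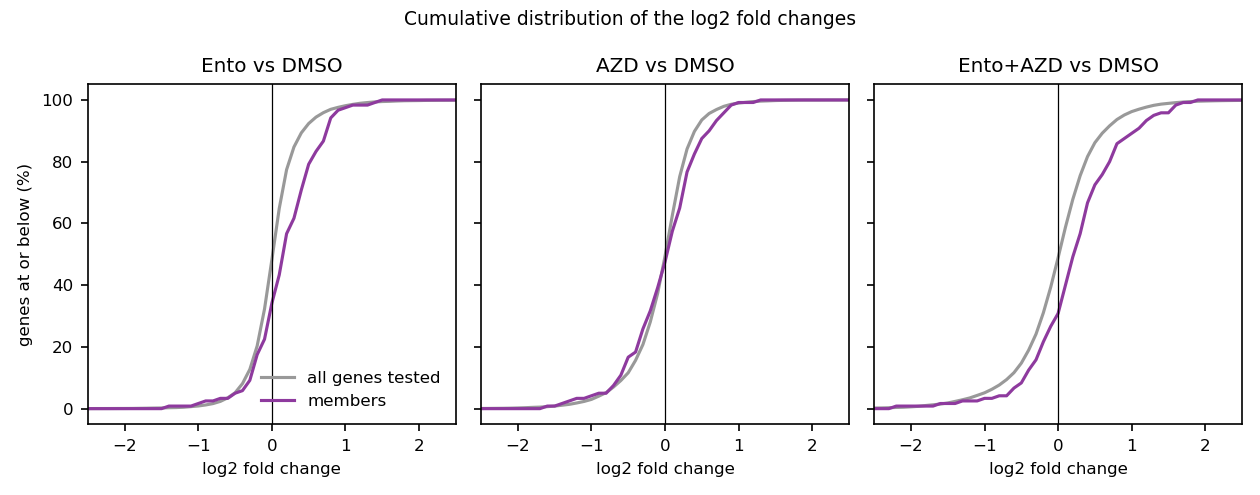
The curves give the share of genes, in percent, at or below each log2 fold change against DMSO, for the 120 LINC genes and for all genes tested. The curve of the LINC genes lies to the right of that of all genes with Ento and Ento+AZD over most of its course, and both cross near 0 with AZD.

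Of the 120 genes, 21 (17.5%) were DEGs in at least 1 of the planned contrasts, against 10.8% of all genes, and 20 (16.7%) were DEGs in at least 1 exposure against DMSO, against 9.85% of all genes. Without the replicate term, the 21 genes kept 0 of their 11 calls with Ento, 3 of 13 with AZD (LINC01749, LINC02006 and LINC02099) and 11 of 18 with Ento+AZD. The 21 genes were of 3 kinds by their fitted changes: 13 were DEGs in the upward direction with Ento+AZD, 4 in the downward direction with Ento+AZD, and 4 had changes of opposite sign with Ento and AZD. The plot of their fold changes gives all 3 exposures, and values per library follow for those with the largest changes of each kind.

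**Figure D3:**
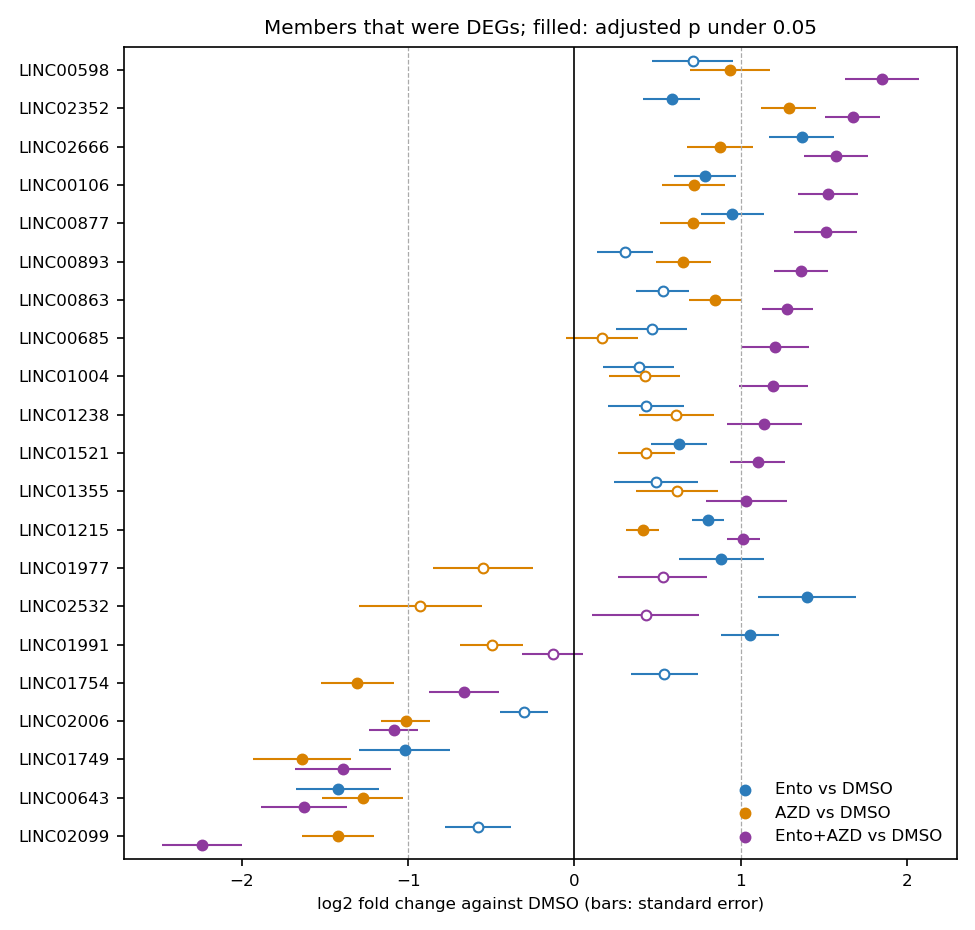
Points give the log2 fold change against DMSO with its standard error for the 21 LINC genes that were DEGs, in blue for Ento, orange for AZD and purple for Ento+AZD, and filled points passed an adjusted p of 0.05. For the 13 genes at the top, LINC00598 to LINC01215, the Ento+AZD point lies farthest to the right, and at the bottom LINC02099 reaches -2.24 with Ento+AZD.

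Among the 13 overexpressed DEGs, LINC00598 and LINC02352 had the largest fold changes. LINC00598 stood at 0.755, 0.779 and 0.747 CPM with DMSO, 1.14, 1.74 and 0.933 CPM with Ento, 1.26, 1.71 and 1.45 CPM with AZD and 2.84, 3.0 and 2.48 CPM with Ento+AZD. All 3 Ento+AZD libraries lay above every other library, and all Ento and AZD libraries lay above all DMSO libraries. The DMSO libraries of LINC00598 all lay under 1 CPM, so that it passed the limit of selection through its exposed groups. Its increase therefore rests in part on the values that selected it. The log2 fold change against DMSO (± standard error, here and below) was 0.71 ± 0.25, adjusted p = 0.0889 with Ento, 0.94 ± 0.24, adjusted p = 0.0141 with AZD and 1.85 ± 0.22, adjusted p = 3.16e-05 with Ento+AZD. LINC00598 spans chr13:40079106-40535807 and lies 19860 bases from FOXO1, the gene of a forkhead transcription factor of B cells, which rose too, by 0.43 (adjusted p = 4.32e-04) on the log2 scale with Ento+AZD. LINC02352 stood at 2.15, 3.44 and 2.51 CPM with DMSO, 3.49, 5.53 and 3.19 CPM with Ento, 4.21, 9.30 and 6.68 CPM with AZD and 7.24, 11.6 and 7.11 CPM with Ento+AZD. Here every AZD and Ento+AZD library was above every DMSO library, while the Ento libraries overlapped with DMSO. This gave log2 fold changes of 0.59 ± 0.17, adjusted p = 0.0498 with Ento, 1.29 ± 0.17, adjusted p = 3.58e-04 with AZD and 1.67 ± 0.16, adjusted p = 9.12e-06 with Ento+AZD. LINC02352 (chr15:31215622-31224445) shares no window with another transcript and lies 54462 bases from TRPM1, the nearest protein-coding gene. The call of LINC02352 with Ento was lost without each library but AZD replicate 1 (adjusted p 0.0522 to 0.211), and that of LINC00598 with AZD without DMSO replicate 2 or AZD replicate 2 or 3 (adjusted p 0.050 to 0.0848).

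LINC02666 and LINC00877 rose with every exposure, and replicate 2 was their highest library in each group. The same held for LINC00106, LINC00598, LINC00685, LINC00863, LINC00893, LINC01215, LINC01238 and LINC02352, but not for LINC01004, LINC01355 and LINC01521. The share of counts on all selected LINC genes was also highest in replicate 2 with Ento (0.129%), AZD (0.110%) and Ento+AZD (0.137%). With DMSO it was highest in replicate 3 (0.1091%). LINC02666 stood at 2.54, 6.87 and 2.51 CPM with DMSO, 7.32, 15.4 and 7.02 CPM with Ento, 3.29, 13.9 and 5.47 CPM with AZD and 8.95, 15.7 and 8.69 CPM with Ento+AZD. Replicate 2 was the highest library of every group, and the groups of AZD and DMSO overlapped while every Ento and Ento+AZD library was above every DMSO library. Fitted with the replicate term, it changed on the log2 scale by 1.37 ± 0.20, adjusted p = 8.75e-04 with Ento, 0.88 ± 0.20, adjusted p = 0.00773 with AZD and 1.57 ± 0.20, adjusted p = 3.95e-05 with Ento+AZD. LINC02666 (chr10:129784983-129806971) lies 14000 bases from MGMT, a DNA repair gene, whose log2 fold change was -0.04 (adjusted p = 0.734) with Ento+AZD. LINC00877 stood at 4.45, 7.19 and 1.53 CPM with DMSO, 7.19, 16.8 and 2.80 CPM with Ento, 5.31, 13.3 and 3.29 CPM with AZD and 11.3, 17.8 and 6.32 CPM with Ento+AZD. All 3 exposures overlapped with DMSO in level, yet each exposed library was above the DMSO library of its own replicate number in 3 of 3 pairs. Its log2 fold change was 0.95 ± 0.19, adjusted p = 0.00826 with Ento, 0.71 ± 0.19, adjusted p = 0.0190 with AZD and 1.51 ± 0.19, adjusted p = 4.10e-05 with Ento+AZD. Without AZD replicate 2 the call with AZD was lost for LINC02666 (adjusted p = 0.0832) and LINC00877, and LINC00877 also lost it without DMSO replicate 2 or 3 or AZD replicate 3 (adjusted p 0.0600 to 0.114). The call of LINC00877 with Ento was lost without Ento replicate 2 (adjusted p = 0.0938), and without the replicate term both genes lost all their calls, with an adjusted p of 0.0813 for LINC02666 and 0.166 for LINC00877 with Ento+AZD.

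LINC01215 was the best measured of the 13. LINC01215 stood at 17.6, 17.9 and 17.5 CPM with DMSO, 30.2, 36 and 27.3 CPM with Ento, 24.4, 27.3 and 19.7 CPM with AZD and 38.3, 41.2 and 29.1 CPM with Ento+AZD. The DMSO libraries were nearly equal, and no exposed library reached down to them. The log2 fold change amounted to 0.80 ± 0.10, adjusted p = 2.72e-04 with Ento, 0.41 ± 0.10, adjusted p = 0.0107 with AZD and 1.02 ± 0.10, adjusted p = 9.26e-06 with Ento+AZD. It lies at chr3:108125821-108138610, with no exon in common with another gene, and 22202 bases from IFT57, which did not pass the test with Ento+AZD, at a log2 fold change of 0.18 (adjusted p = 0.149). LINC01521 stood at 4.93, 3.71 and 3.34 CPM with DMSO, 5.72, 6.30 and 6.58 CPM with Ento, 5.18, 4.65 and 6.39 CPM with AZD and 8.02, 8.72 and 9.03 CPM with Ento+AZD. Ento and Ento+AZD libraries lay above all DMSO libraries, and AZD overlapped with DMSO. Log2 fold changes were 0.63 ± 0.17, adjusted p = 0.0342 with Ento, 0.43 ± 0.17, adjusted p = 0.0832 with AZD and 1.10 ± 0.17, adjusted p = 1.67e-04 with Ento+AZD. PATZ1, which starts on the other strand 431 bases away, rose with Ento, by 0.38 (adjusted p = 0.0345) on the log2 scale, and with Ento+AZD, by 0.34 (adjusted p = 0.0162). Calls lost without 1 library were LINC01215 with AZD without AZD replicate 2 (adjusted p = 0.0571) and LINC01521 with Ento without DMSO replicate 2 or 3 or any Ento replicate (adjusted p 0.0779 to 0.151).

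LINC00106 and LINC00685, both in the pseudoautosomal region, were overexpressed with Ento+AZD. LINC00106 stood at 0.994, 3.02 and 1.49 CPM with DMSO, 2.40, 5.17 and 1.92 CPM with Ento, 2.15, 4.54 and 2.23 CPM with AZD and 3.82, 7.96 and 3.84 CPM with Ento+AZD. LINC00685 stood at 2.31, 3.34 and 2.0 CPM with DMSO, 3.70, 4.61 and 2.26 CPM with Ento, 1.73, 5.08 and 2.23 CPM with AZD and 4.94, 8.82 and 4.29 CPM with Ento+AZD. In both genes replicate 2 was the highest library of every group, and the Ento+AZD libraries lay above all DMSO libraries, while the single agents overlapped with DMSO. For LINC00106 the log2 fold change was 0.79 ± 0.19, adjusted p = 0.0197 with Ento, 0.72 ± 0.19, adjusted p = 0.0160 with AZD and 1.53 ± 0.18, adjusted p = 2.85e-05 with Ento+AZD. For LINC00685 it was 0.47 ± 0.21, adjusted p = 0.194 with Ento, 0.17 ± 0.22, adjusted p = 0.622 with AZD and 1.21 ± 0.20, adjusted p = 4.00e-04 with Ento+AZD. ASMTL, 3737 bases from LINC00106, fell with Ento+AZD, at a log2 fold change of -0.27 (adjusted p = 0.0168). LINC00106 lost its call with Ento without DMSO replicate 1 or Ento replicate 1 or 2 (adjusted p 0.0636 to 0.125), and with AZD without DMSO replicate 1 or AZD replicate 2 or 3 (adjusted p 0.0507 to 0.0745). Without the replicate term the adjusted p with Ento+AZD was 0.0597 for LINC00106 and 0.0629 for LINC00685.

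LINC00863 and LINC00893 rose with AZD and Ento+AZD, and both share sequence with other genes. LINC00863 stood at 4.73, 6.83 and 2.55 CPM with DMSO, 6.77, 8.80 and 4.42 CPM with Ento, 7.16, 11.1 and 6.53 CPM with AZD and 10.4, 13.8 and 9.03 CPM with Ento+AZD. LINC00893 stood at 2.27, 3.85 and 2.71 CPM with DMSO, 3.15, 5.63 and 2.41 CPM with Ento, 3.96, 6.84 and 3.39 CPM with AZD and 6.85, 9.96 and 5.98 CPM with Ento+AZD. The Ento+AZD libraries were above all DMSO libraries in both genes, and those of AZD overlapped with DMSO. LINC00863 had a log2 fold change of 0.53 ± 0.16, adjusted p = 0.0534 with Ento, 0.85 ± 0.16, adjusted p = 0.00246 with AZD and 1.28 ± 0.15, adjusted p = 3.24e-05 with Ento+AZD. That of LINC00893 was 0.31 ± 0.17, adjusted p = 0.289 with Ento, 0.66 ± 0.17, adjusted p = 0.0133 with AZD and 1.36 ± 0.16, adjusted p = 2.85e-05 with Ento+AZD. LINC00863 overlaps exons of NUTM2D on the same strand, and NUTM2D, a member of the NUTM gene family, rose alongside, by 1.39 (adjusted p = 1.70e-04) on the log2 scale with Ento+AZD, so that reads of both cannot be told apart. LINC00893 shares 44.7% of its windows with other transcripts, and LINC00863 shares 27.4%. The call of LINC00893 with AZD was lost without AZD replicate 2 (adjusted p = 0.0675).

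LINC01004, LINC01238 and LINC01355 passed the test with Ento+AZD and with neither single agent. LINC01004 stood at 4.13, 6.28 and 10.6 CPM with DMSO, 7.40, 11.2 and 8.50 CPM with Ento, 7.67, 9.73 and 10.3 CPM with AZD and 12.8, 21 and 13.7 CPM with Ento+AZD. LINC01238 stood at 3.78, 7.92 and 7.86 CPM with DMSO, 6.73, 15.7 and 5.16 CPM with Ento, 6.83, 14.9 and 8.95 CPM with AZD and 12, 17.6 and 13 CPM with Ento+AZD. LINC01355 stood at 1.63, 1.37 and 2.79 CPM with DMSO, 1.85, 3.38 and 3.14 CPM with Ento, 1.98, 3.90 and 3.29 CPM with AZD and 3.23, 5.15 and 3.61 CPM with Ento+AZD. In all 3 genes each Ento+AZD library was above each DMSO library, and both single agents overlapped with DMSO. For LINC01004 the log2 fold changes were 0.39 ± 0.22, adjusted p = 0.286 with Ento, 0.42 ± 0.21, adjusted p = 0.170 with AZD and 1.20 ± 0.21, adjusted p = 5.22e-04 with Ento+AZD. Those of LINC01238 were 0.43 ± 0.23, adjusted p = 0.268 with Ento, 0.61 ± 0.23, adjusted p = 0.0669 with AZD and 1.14 ± 0.22, adjusted p = 0.00121 with Ento+AZD. LINC01355 gave 0.49 ± 0.25, adjusted p = 0.245 with Ento, 0.62 ± 0.25, adjusted p = 0.0882 with AZD and 1.03 ± 0.24, adjusted p = 0.00401 with Ento+AZD. LINC01004 overlaps the body of KMT2E, a gene of the histone methyltransferase family on the opposite strand, which fell, at a log2 fold change of -0.38 (adjusted p = 0.0145). LINC01355 lies 16283 bases from HNRNPR, the gene of an RNA-binding protein, which fell as well, at -0.45 (adjusted p = 0.00168). Without DMSO replicate 2 the log2 fold change of LINC01355 was 0.68 (adjusted p = 0.0205), and without the replicate term the calls of LINC01238 (adjusted p = 0.0845) and LINC01355 (adjusted p = 0.0595) were lost.

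The underexpressed genes were LINC02099, LINC00643, LINC01749 and LINC02006. LINC02099 stood at 3.18, 4.26 and 1.77 CPM with DMSO, 2.14, 2.41 and 1.47 CPM with Ento, 1.18, 1.18 and 0.968 CPM with AZD and 0.783, 0.667 and 0.451 CPM with Ento+AZD. Mean levels were highest with DMSO, then Ento, AZD and Ento+AZD, all Ento+AZD libraries lay under every AZD library, and Ento overlapped with DMSO. The log2 fold change was -0.58 ± 0.20, adjusted p = 0.0855 with Ento, -1.42 ± 0.22, adjusted p = 9.06e-04 with AZD and -2.24 ± 0.24, adjusted p = 1.64e-05 with Ento+AZD, the largest decrease with Ento+AZD among the 120 genes. LINC00643 stood at 4.05, 3.02 and 1.77 CPM with DMSO, 1.64, 0.768 and 0.835 CPM with Ento, 1.56, 1.02 and 1.02 CPM with AZD and 0.929, 0.858 and 1.02 CPM with Ento+AZD. Every exposed library was under every DMSO library, and the exposures overlapped among themselves. Its log2 fold changes were -1.42 ± 0.25, adjusted p = 0.00365 with Ento, -1.27 ± 0.24, adjusted p = 0.00310 with AZD and -1.63 ± 0.26, adjusted p = 2.51e-04 with Ento+AZD. GENCODE calls this gene SERTAD4BP, a transcribed unitary pseudogene, and it overlaps another gene on the same strand.

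LINC01749 stood at 1.95, 1.56 and 2.24 CPM with DMSO, 0.841, 0.870 and 1.13 CPM with Ento, 0.843, 0.481 and 0.484 CPM with AZD and 0.685, 0.953 and 0.508 CPM with Ento+AZD. No exposed library of LINC01749 reached the lowest DMSO library. It was the last gene inside the limit, with a mean of 0.03 (log2 CPM). All its exposed libraries but Ento replicate 3 lay under 1 CPM, so that it passed the limit through its DMSO level. Its decrease therefore rests in part on the values that selected it. This corresponded to log2 fold changes of -1.02 ± 0.27, adjusted p = 0.0342 with Ento, -1.64 ± 0.30, adjusted p = 0.00220 with AZD and -1.39 ± 0.29, adjusted p = 0.00188 with Ento+AZD. LINC02006 stood at 25, 18.1 and 19.4 CPM with DMSO, 19.3, 12.4 and 18.8 CPM with Ento, 12.5, 10.4 and 8.08 CPM with AZD and 10.7, 10.2 and 8.24 CPM with Ento+AZD. The AZD and Ento+AZD libraries were all under the lowest DMSO library, and the Ento libraries overlapped with DMSO. The log2 fold change came to -0.30 ± 0.14, adjusted p = 0.208 with Ento, -1.01 ± 0.15, adjusted p = 6.75e-04 with AZD and -1.09 ± 0.15, adjusted p = 8.36e-05 with Ento+AZD. Per kilobase of its longest transcript LINC02006 was among the more abundant of these RNAs, with a level of 10.6 ± 1.86 CPM per kb with DMSO (SD, n = 3), at rank 9 of the 115 genes with a length. Its body runs over chr3:153384934-153980186, 140817 bases from ARHGEF26. The call of LINC01749 with Ento was lost without DMSO replicate 1 or 3 or any Ento replicate (adjusted p 0.0611 to 0.185), while the calls of all 4 genes with Ento+AZD held without each library in turn and without the replicate term. Without that term LINC00643 lost its calls with Ento (adjusted p = 0.139) and AZD (adjusted p = 0.0775), and LINC01749 its call with Ento (adjusted p = 0.192).

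**Figure D4:**
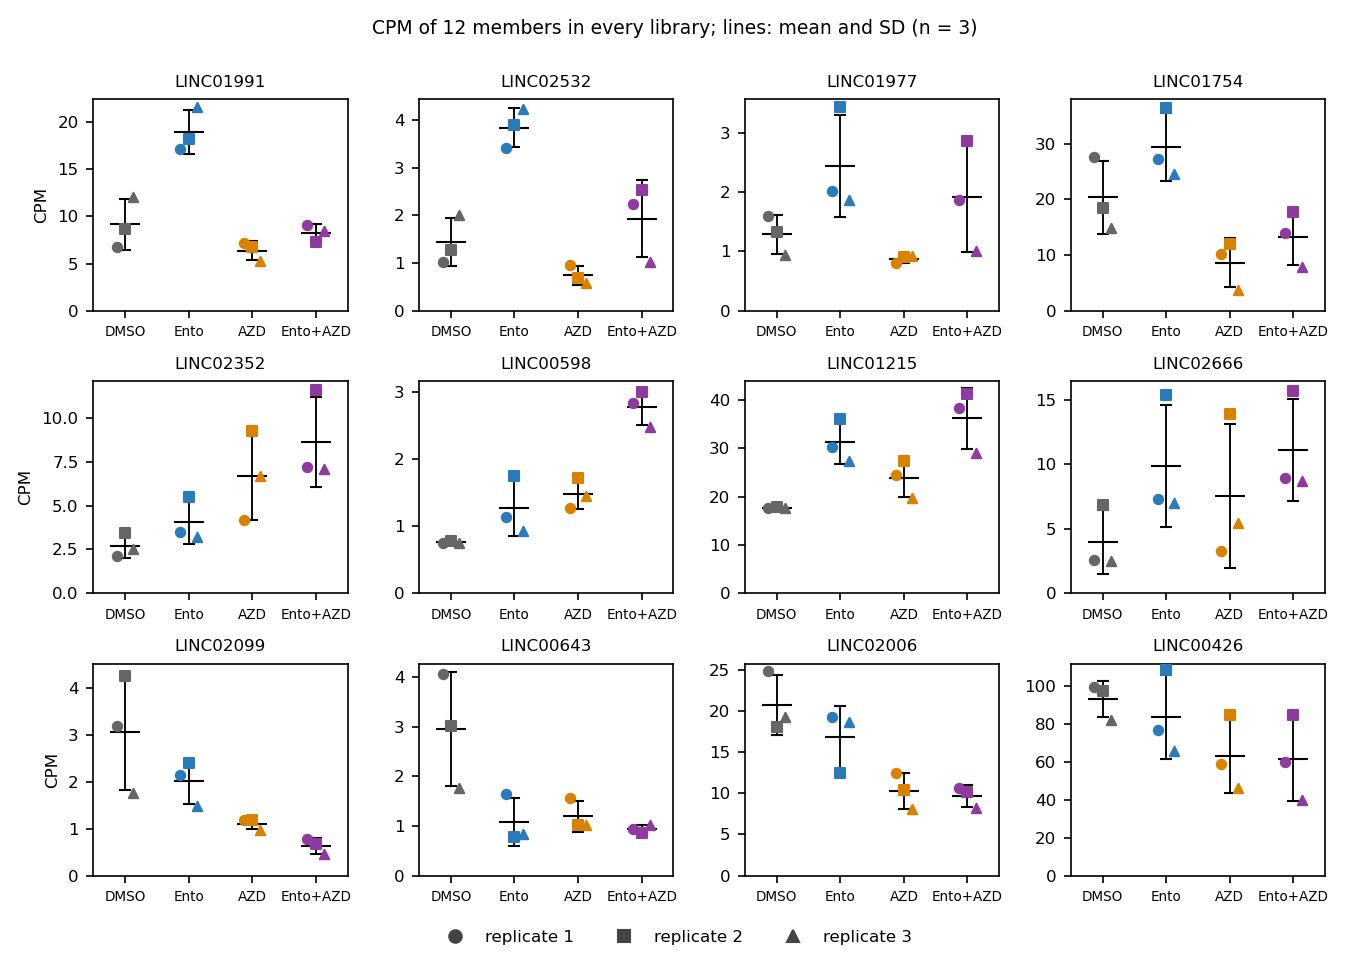
Each panel gives the TMM-normalized CPM of 1 LINC gene in all 12 libraries, with circles, squares and triangles for replicates 1, 2 and 3, and black lines for the mean and SD of each group (n = 3). LINC01991 and LINC02532 are highest with Ento, LINC00598 is highest with Ento+AZD at 2.48 to 3.0 CPM, and LINC02099 is lowest with Ento+AZD at 0.451 to 0.783 CPM.

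A further 4 DEGs had fitted changes of opposite sign with the single agents. LINC02532, LINC01991, LINC01977 and LINC01754 were compared directly between Ento and AZD, a contrast that was added after these values were seen. LINC02532 stood at 1.03, 1.28 and 2.0 CPM with DMSO, 3.41, 3.89 and 4.22 CPM with Ento, 0.969, 0.695 and 0.581 CPM with AZD and 2.25, 2.53 and 1.02 CPM with Ento+AZD. All Ento libraries were above and all AZD libraries under the DMSO libraries, and Ento+AZD overlapped with DMSO. Its log2 fold change was 1.40 ± 0.30, adjusted p = 0.0108 with Ento, -0.93 ± 0.37, adjusted p = 0.0877 with AZD and 0.43 ± 0.32, adjusted p = 0.312 with Ento+AZD. Ento was higher than AZD by 2.33 ± 0.33, adjusted p = 3.30e-04, on the log2 scale. LINC01991 stood at 6.72, 8.70 and 12 CPM with DMSO, 17.1, 18.2 and 21.6 CPM with Ento, 7.16, 6.73 and 5.23 CPM with AZD and 9.10, 7.34 and 8.4 CPM with Ento+AZD. The Ento libraries stood above all libraries of the other groups, and AZD and Ento+AZD overlapped with DMSO. For LINC01991 the values were 1.06 ± 0.17, adjusted p = 0.00254 with Ento, -0.50 ± 0.19, adjusted p = 0.0703 with AZD and -0.13 ± 0.18, adjusted p = 0.606 with Ento+AZD. The difference between Ento and AZD was 1.55 ± 0.18, adjusted p = 6.81e-05, and LINC01991 was lower with Ento+AZD than with Ento at a log2 fold change of -1.19 ± 0.18, adjusted p = 7.51e-04. Without Ento replicate 3 the call of LINC02532 with Ento was lost (adjusted p = 0.0620), and the calls between Ento and AZD of both genes held without each library.

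LPP, which encodes a protein of focal adhesions, is the protein-coding gene closest to LINC01991 at 176877 bases. Its log2 fold change was 1.26 (adjusted p = 3.60e-04) with Ento, -0.56 (adjusted p = 0.0253) with AZD and 0.67 (adjusted p = 0.00447) with Ento+AZD. LPP rose with Ento and Ento+AZD and fell with AZD. QRSL1, a subunit of a mitochondrial amidotransferase and closest to LINC02532 at 36911 bases, had log2 fold changes of 0.71 (adjusted p = 5.22e-04), -0.35 (adjusted p = 0.0206) and 0.30 (adjusted p = 0.0226). QRSL1 rose with Ento and Ento+AZD and fell with AZD, whereas LINC01991 and LINC02532 passed with Ento and not with AZD.

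LINC01754 stood at 27.7, 18.5 and 14.9 CPM with DMSO, 27.3, 36.3 and 24.6 CPM with Ento, 10.3, 12 and 3.68 CPM with AZD and 13.9, 17.7 and 7.95 CPM with Ento+AZD. All AZD libraries lay under all DMSO libraries, and Ento and Ento+AZD overlapped with DMSO. LINC01754 changed by 0.54 ± 0.20, adjusted p = 0.111 with Ento, -1.30 ± 0.22, adjusted p = 0.00146 with AZD and -0.66 ± 0.21, adjusted p = 0.0216 with Ento+AZD. Ento exceeded AZD by 1.85 ± 0.22, adjusted p = 7.07e-05. ZMYND8, the gene of a reader of acetylated histones 35036 bases away, fell, with log2 fold changes of -0.52 (adjusted p = 0.00295) with AZD and -0.58 (adjusted p = 4.21e-04) with Ento+AZD. LINC01977 stood at 1.59, 1.33 and 0.943 CPM with DMSO, 2.02, 3.43 and 1.87 CPM with Ento, 0.801, 0.909 and 0.919 CPM with AZD and 1.86, 2.86 and 1.02 CPM with Ento+AZD. Its Ento libraries were above and its AZD libraries under all DMSO libraries. Its changes were 0.88 ± 0.26, adjusted p = 0.0473 with Ento, -0.55 ± 0.30, adjusted p = 0.202 with AZD and 0.53 ± 0.27, adjusted p = 0.128 with Ento+AZD. Ento exceeded AZD by 1.43 ± 0.28, adjusted p = 0.00330. LINC01754 lost its call with Ento+AZD without DMSO replicate 1 or 3 or Ento+AZD replicate 1 or 3 (adjusted p 0.0691 to 0.134), and LINC01977 its call with Ento without any of 8 libraries (adjusted p 0.0519 to 0.229), namely DMSO replicates 2 and 3, Ento replicates 1, 2 and 3, AZD replicates 1 and 2 and Ento+AZD replicate 1.

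Over all 120 genes, Ento was higher than AZD in 16 (13.3%) and lower in 5 (4.17%), where 8.99% and 5.73% of all genes were called. LINC02576, LINC02397 and LINC01588 passed against DMSO with each agent, rising with Ento and falling with AZD. LINC02576 stood at 5.37, 5.13 and 4.44 CPM with DMSO, 7.95, 10.9 and 7.07 CPM with Ento, 3.46, 5.13 and 1.79 CPM with AZD and 7.24, 8.58 and 4.23 CPM with Ento+AZD. LINC02397 stood at 14.9, 7.51 and 4.28 CPM with DMSO, 15.2, 11.9 and 11.2 CPM with Ento, 7.88, 4.86 and 3.0 CPM with AZD and 10.4, 7.91 and 4.79 CPM with Ento+AZD. LINC01588 stood at 3.70, 3.48 and 2.67 CPM with DMSO, 5.13, 7.22 and 3.19 CPM with Ento, 2.11, 2.19 and 1.55 CPM with AZD and 3.38, 3.76 and 2.48 CPM with Ento+AZD. The log2 fold change of LINC02576 was 0.77 with Ento (adjusted p = 0.0202) and -0.60 with AZD (adjusted p = 0.0463), that of LINC02397 0.65 with Ento (adjusted p = 0.0475) and -0.72 with AZD (adjusted p = 0.0211), and that of LINC01588 0.62 with Ento (adjusted p = 0.0368) and -0.76 with AZD (adjusted p = 0.0119). The call between Ento and AZD held without each library in turn for all 3, whereas the calls against DMSO did not. LINC02576 lost its call with Ento without DMSO replicate 2 or Ento replicate 1, 2 or 3 (adjusted p 0.0526 to 0.0913) and with AZD without DMSO replicate 1 or 3, Ento replicate 1 or 2, AZD replicate 1 or 3 or Ento+AZD replicate 1 or 3 (adjusted p 0.0516 to 0.241). LINC02397 was no longer called with Ento without DMSO replicate 2 or 3, Ento replicate 2 or 3, AZD replicate 1, 2 or 3 or Ento+AZD replicate 1 or 3 (adjusted p 0.0507 to 0.206) and with AZD without DMSO replicate 1 or AZD replicate 2 or 3 (adjusted p 0.0700 to 0.157). LINC01588 missed the threshold with Ento without DMSO replicate 1 or 2, Ento replicate 1 or 2, AZD replicate 2 or 3 or Ento+AZD replicate 1 or 3 (adjusted p 0.0511 to 0.266) and with AZD without AZD replicate 2 (adjusted p = 0.0632). These 3 genes are named because they are the only ones with opposite calls, a choice made after their values were seen. The 5 genes higher with AZD than with Ento were LINC00467, LINC01480, LINC01569, LINC02352 and LINC02693, with log2 values of Ento against AZD between -0.98 and -0.47. The 21 calls came to 9 without AZD replicate 3, 10 without Ento replicate 3, 12 without Ento replicate 1 and 13 without Ento replicate 2. They came to 4 when the replicate term was dropped.

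LINC01781, given as the marker of these genes, lay below the limit with a mean log2 CPM of -0.60 and is not among the 120. Its counts were 8, 8 and 0 with DMSO, 103, 83 and 70 with Ento, 2, 0 and 1 with AZD and 28, 40 and 13 with Ento+AZD. All Ento and Ento+AZD libraries were above all others, and all AZD libraries were at or under 3 counts. Its level was 0.228 ± 0.199 CPM with DMSO (SD, n = 3), 4.01 ± 0.493 CPM with Ento and 1.34 ± 0.587 CPM with Ento+AZD. Against a floor of 3 counts per library, the level with Ento was at least 27.8-fold higher than with AZD and that with Ento+AZD at least 9.28-fold higher, bounds that cover counting error only. Against DMSO the log2 fold change was 4.17 ± 0.40, adjusted p = 4.28e-05 with Ento and 2.56 ± 0.47, adjusted p = 7.40e-04 with Ento+AZD. Over the 12 libraries, after removal of the replicate number, the genes of the 120 that were most like it were LINC01977 with Pearson's r of 0.899, LINC02532 with 0.829 and LINC02397 with 0.822, a description over libraries that share groups.

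None of the 5 most abundant of the 120 genes was a DEG against DMSO. By mean log2 CPM they were LINC01000, LINC00487, LINC00426, LINC01184 and LINC01694. LINC00426 stood at 99.6, 97.3 and 82.0 CPM with DMSO, 76.7, 108 and 65.6 CPM with Ento, 58.7, 84.6 and 46.2 CPM with AZD and 60.1, 84.7 and 40.0 CPM with Ento+AZD. The spread between replicates was wide in all exposed groups, and the ranges of Ento and AZD and Ento+AZD overlapped with DMSO. LINC00426 had log2 fold changes of -0.19 ± 0.12, adjusted p = 0.339 with Ento, -0.61 ± 0.12, adjusted p = 0.00365 with AZD and -0.66 ± 0.12, adjusted p = 7.49e-04 with Ento+AZD, so that it fell with AZD and with Ento+AZD. LINC00487 ranged from 58.7 to 96.8 CPM over the 12 libraries and did not pass in any exposure, with log2 fold changes of -0.26 ± 0.12, adjusted p = 0.177 with Ento, -0.13 ± 0.12, adjusted p = 0.436 with AZD and -0.10 ± 0.12, adjusted p = 0.524 with Ento+AZD. LINC01000, which has no match in GENCODE v44, rose with Ento+AZD from 75.6 ± 10.5 CPM to 104 ± 10.9 CPM (SD, n = 3), a log2 fold change of 0.46 ± 0.09, adjusted p = 7.89e-04. LINC01184 rose with Ento+AZD by 0.39 ± 0.08, adjusted p = 0.00141, on the log2 scale.

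LINC01694 was called with Ento+AZD at 0.22 ± 0.08, adjusted p = 0.0486, a call lost without 10 of the 12 libraries, all but DMSO replicate 3 and Ento+AZD replicate 2 (adjusted p 0.0579 to 0.179). Per kilobase of the longest transcript, the level with DMSO was 48.4 ± 4.99 CPM per kb for LINC00426, 39.5 ± 0.837 for LINC00487 and 24.5 ± 7.89 for LINC01754 (SD, n = 3). LINC00674 had a value of 209.7 CPM per kb, over an annotated transcript of 160 bases. LINC00426 and LINC00487 did not overlap in level per kb, with 42.7 to 51.9 and 38.9 to 40.5 CPM per kb, and these levels rest on annotated lengths. Smallest changes with Ento+AZD were those of LINC01786 (0.003 ± 0.23 on the log2 scale), LINC02693 (0.007 ± 0.14) and LINC01134 (-0.008 ± 0.31).

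The combined exposure was also compared with each single agent. Against Ento, 18 genes were higher (15%) and 9 lower (7.50%) with Ento+AZD, where 8.27% and 12.2% of all genes were called. Against AZD, 21 were higher (17.5%) and 0 lower by edgeR's test, where 5.85% and 6.04% of all genes were called. At an unadjusted p under 0.05, 4 were lower against AZD, and DESeq2 called 1 lower. DEGs against Ento were LINC00598 (1.14 ± 0.21, adjusted p = 0.00214), LINC02352 (1.09 ± 0.16, adjusted p = 6.17e-04) and LINC00893 (1.06 ± 0.16, adjusted p = 7.51e-04), all higher in log2 terms, and LINC02099 (-1.66 ± 0.26, adjusted p = 8.56e-04), LINC01754 (-1.21 ± 0.21, adjusted p = 0.00158) and LINC01991, all lower. DEGs against AZD were LINC02532 (1.35 ± 0.37, adjusted p = 0.0289), LINC01977 (1.08 ± 0.29, adjusted p = 0.0287) and LINC00685 (1.04 ± 0.20, adjusted p = 0.00666).

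Among the 21 DEGs, LINC00598, LINC00106, LINC00685, LINC00877, LINC00893 and LINC01004 were higher with Ento+AZD than with either single agent. LINC02532 also passed in both comparisons, lower against Ento and higher against AZD. The calls of LINC00598 and LINC00893 against Ento and of LINC00685 against AZD held without each library in turn. LINC00106 lost its call against Ento without Ento replicate 3 (adjusted p = 0.0618) and against AZD without AZD replicate 2 (adjusted p = 0.0626). LINC00598 was no longer called against AZD without AZD replicate 1 or 2 or Ento+AZD replicate 1 (adjusted p 0.0559 to 0.0858). LINC00685 missed the threshold against Ento without Ento replicate 2 or 3 or Ento+AZD replicate 1, 2 or 3 (adjusted p 0.0542 to 0.104). LINC00877 lost its call against Ento without Ento replicate 1 or 3, AZD replicate 2 or Ento+AZD replicate 1 or 3 (adjusted p 0.0534 to 0.190) and against AZD without AZD replicate 1 or Ento+AZD replicate 1 or 3 (adjusted p 0.0564 to 0.0956). LINC00893 was no longer called against AZD without AZD replicate 1 or Ento+AZD replicate 1 (adjusted p 0.0546 to 0.0577). LINC01004 missed the threshold against Ento without Ento replicate 3 or Ento+AZD replicate 1 or 2 (adjusted p 0.0578 to 0.0965) and against AZD without AZD replicate 1, 2 or 3 or Ento+AZD replicate 1 or 2 (adjusted p 0.0673 to 0.131). LINC02532 lost its call against Ento without Ento replicate 1, 2 or 3 or Ento+AZD replicate 1 or 3 (adjusted p 0.0528 to 0.168). The 27 calls against Ento came to 11 without Ento replicate 3 and 14 without Ento+AZD replicate 1, and the 21 against AZD came to 7 without AZD replicate 1, AZD replicate 2 or Ento+AZD replicate 1, 10 without Ento+AZD replicate 2 and 13 without AZD replicate 3. Against AZD, LINC02532 lost its call without AZD replicate 2 or 3 or Ento+AZD replicate 1 or 2 (adjusted p 0.0964 to 0.127), and LINC01977 without AZD replicate 1 or 2 or Ento+AZD replicate 1 or 2 (adjusted p 0.0891 to 0.151). Without the replicate term 3 genes were called against Ento and 0 against AZD, where 18 of the 120 had an unadjusted p under 0.05.

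Whether Ento+AZD changed a gene by more or less than the sum of both single agents was tested as an interaction. No gene of the 120 passed (0 higher and 0 lower by edgeR's test, against 0% and 0% of all genes), the smallest adjusted p being 0.444. At an unadjusted p under 0.05, 13 of the 120 (10.8%) and 9.81% of all genes passed, and DESeq2 called 0 of the 120. The fitted interactions of the 120 genes ran from -0.97 to 1.27 on the log2 scale with a median of 0.08. A p above the threshold does not show that the effects were additive.

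For the protein-coding gene nearest to each of the 120, a tested neighbour was found in 92 cases. Across these pairs, which are not independent replicates, Pearson's r between the fold change of the LINC gene and that of its neighbour was 0.216 with Ento, 0.159 with AZD and 0.004 with Ento+AZD. With Ento, 16 LINC genes of these pairs were called, and the neighbour was called too in 5, in the same direction in 4. With AZD, 19 were called, with 8 neighbours called, all 8 in the same direction. With Ento+AZD 32 were called with 17 neighbours, of which 9 changed in the same direction and 8 in the opposite one. Of all genes tested, 8.32% were called in either direction with Ento, 22.2% with AZD and 40% with Ento+AZD. Genes whose neighbour fell while they rose with Ento+AZD included LINC00106, LINC01004 and LINC01355, and those whose neighbour rose with them included LINC00598, LINC00863 and LINC01521.

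**Figure D5:**
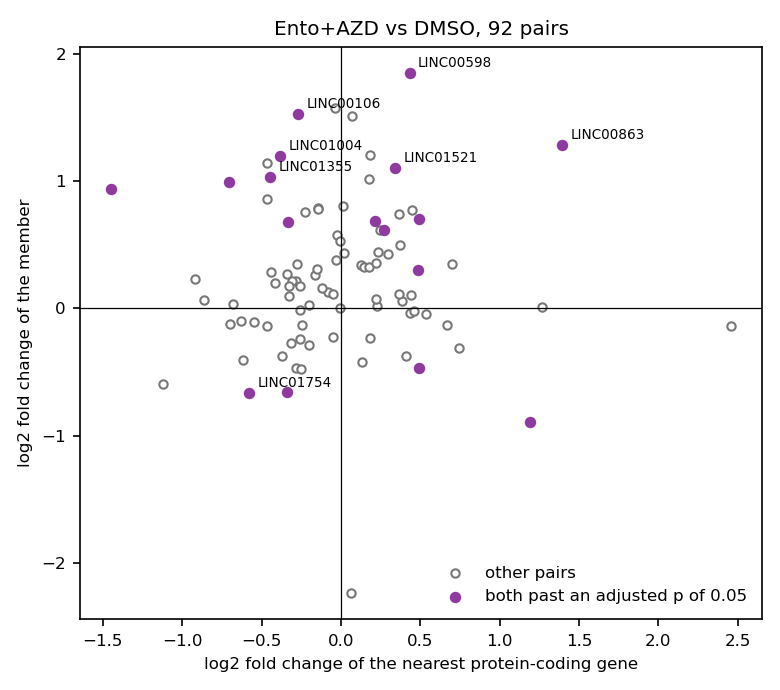
Each point is 1 LINC gene with its nearest protein-coding gene (92 pairs), with the log2 fold change of Ento+AZD against DMSO of the neighbour on the horizontal and of the LINC gene on the vertical axis, and filled points passed an adjusted p of 0.05 in both. The filled points lie in all 4 corners of the plot, 9 with equal and 8 with opposite signs.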

How the data were processed

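Poly(A) RNA of SU-DHL-4 cells (DMSO, Ento, AZD and Ento+AZD for 72 h, 3 libraries each) was sequenced as single reads of 75 bases on a NextSeq500 with the NEBNext Ultra II kit. According to the methods and the submitters' processing notes, the authors made reads with bcl2fastq 2.19, trimmed them with Cutadapt through Trim Galore, aligned them to GRCh38.p13 and assigned them to genes with Rsubread. The notes also list hg19. Strand and multimapping settings, which decide how reads of overlapping or similar genes are counted, are not given in the sources used here. The authors deposited raw counts for 46863 symbols. They also deposited log2 CPM values of 16226 genes, made in edgeR with TMM scaling and a prior count of 2, as a recalculation from the counts showed.

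From the counts, genes were filtered by group (filterByExpr, minimum count 10, minimum total 15) and TMM-normalized. A model with group and replicate number over all 12 libraries was fitted with the quasi-likelihood F-test of edgeR 4.0.16 in R 4.3.3, with limma 3.58.1. Calls have a Benjamini-Hochberg adjusted p under 0.05 over all 16835 genes, and DEGs also an absolute log2 fold change over 1. The script was tested on simulated data. Replicate numbers come from the labels. Same-numbered libraries correlated in their deviations from the group means with r of 0.213 to 0.703 (18 pairs, median 0.435), libraries of different number with -0.627 to 0.325 (36 pairs). Deviations from a mean of 3 libraries sum to 0, so negative values between different numbers follow in part from the positive ones. The labels name no batch, and the replicate number was taken for the batch of the study. Between replicates the counts differed by more than sampling noise (chi-square per degree of freedom 8.21 to 48.5), so none were counted as copies. The labels do not say whether the replicates were separate cultures, so p-values measure the spread between these samples.

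The LINC genes and all gene lists were chosen with earlier results of these data known, and the contrast of Ento against AZD was added after values were seen. Named with values were LINC01781, the 5 genes of highest mean, all DEGs, the 3 with the smallest change with Ento+AZD, the 3 on each side of the limit, and the nearest protein-coding genes in GENCODE v44. Lists for comparison were other LINC genes, antisense RNAs, divergent transcripts, LOC genes, hosts of snoRNAs and of microRNAs, named lncRNAs, BET inhibition markers, and B-cell receptor and SYK response genes. Alternatives were no replicate term, DESeq2 1.42.0 size factors or test, no filter, only the groups compared, a mean limit of 1 for the selection, each library left out, and, added later, LINC genes with mostly shared windows left out. Values after ± are standard errors of the fit for log2 fold changes and SDs over 3 libraries for levels and shares. Floors (3 counts) cover counting error only. Results of some genes are not reported here.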

Additional observations from a re-analysis of the deposited data

How the results depend on the processing

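Among the 120 LINC genes the counts of calls depended most on pairing the libraries by replicate number. Without the replicate block, 0 genes were called with Ento against DMSO (by edgeR), 3 with AZD, 17 with Ento+AZD, 3 with Ento+AZD against Ento, 0 against AZD and 4 between Ento and AZD. With 1 library left out, the calls ranged from 6 to 21 with Ento, from 11 to 27 with AZD, from 35 to 48 with Ento+AZD, from 11 to 30 with Ento+AZD against Ento, from 7 to 25 against AZD, from 9 to 23 between Ento and AZD and from 0 to 1 for the interaction, the 1 without DMSO replicate 2. Without the filter on low counts 1 gene passed the interaction. The counts of the other comparisons under DESeq2, its size factors, no filter and only the groups compared lay within 1.5 times of those given, 35 to 49 with Ento+AZD and 14 to 30 with Ento. The cause of these differences was not tested. Of the 88 LINC genes with a mean of 1 or higher, 36 passed with Ento+AZD in either direction. This share is close to the 40% of all genes called in either direction, and it does not give the direction. Without those that share most of their windows the 44 calls stood as before. Of the 21 DEGs named, 18 passed with Ento+AZD against DMSO, and of these 17 kept the call without each library in turn and 11 without the block. No call of a named gene changed direction under any of these alternatives. The interaction names all groups, so leaving out the others gives no alternative for it. A single count was worth 0.0393 to 0.0564 CPM, so that a LINC gene near 1 CPM rests on few counts per library.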

Other observations

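Other noncoding RNAs also tended to be called higher rather than lower with Ento+AZD. Of 75 LINC genes that were tested but lay below the limit, 15 were higher (20%) and 4 lower (5.33%) against DMSO, with a median log2 fold change of 0.28. Among 334 antisense RNAs, which are named after the gene on the other strand, 30.2% were higher and 7.49% lower (median 0.32). Of 56 divergent transcripts, which start next to a coding gene and run away from it, 14 were higher (25%) and 3 lower (5.36%), with a median of 0.28. Genes with a LOC symbol, 1730 in all and of mixed kinds, were higher in 22.4% and lower in 7.23% (median 0.22). For all genes tested the shares were 19.2% and 20.8%. The share called higher was thus near that of all genes for the LINC genes below the limit and the LOC genes. Their share called lower was smaller. The lists were described and not tested.

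Host genes of small RNAs are spliced transcripts that hold snoRNAs or microRNAs. Of 23 snoRNA hosts, 9 were higher and 1 lower with AZD, 5 higher and 0 lower with Ento, and 13 higher and 1 lower with Ento+AZD, where the median log2 fold change was 0.33. Of 9 microRNA hosts, 2 were higher and 1 lower with AZD, 1 higher and 0 lower with Ento, and 3 higher and 1 lower with Ento+AZD (median 0.30). Of 14 long noncoding RNAs with names of their own, 6 were higher and 2 lower with Ento+AZD (median 0.27). Of all genes tested, 9.57% were higher and 12.7% lower with AZD, and 4.66% and 3.66% with Ento. With Ento+AZD, 19.2% were higher and 20.8% lower. NEAT1, the scaffold of paraspeckles, rose by 0.93 on the log2 scale with Ento+AZD (adjusted p = 6.01e-05, edgeR) and by 0.96 with AZD (adjusted p = 0.000358), and its change with Ento was -0.17 (adjusted p = 0.423). KCNQ1OT1, an imprinted antisense transcript, rose by 1.16 with Ento+AZD (adjusted p = 4.52e-05), whereas DLEU2 had a log2 fold change of -0.64 (adjusted p = 0.000541) and fell.

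Of 4 genes used as markers of BET inhibition, 2 were higher with AZD, HEXIM1 by 0.44 (adjusted p = 0.00771) and the histone gene H2BC21 by 1.12 (adjusted p = 0.0210) on the log2 scale, and both were also called with Ento+AZD. MYC and SERPINI1 were not called with any exposure. Of 8 genes that respond to B-cell receptor and SYK signaling, 2 were higher and 0 lower with Ento. With AZD, 0 were higher and 2 lower, and with Ento+AZD 2 were higher and 2 lower. BACH2, the gene of a transcription factor of B cells, rose with Ento by 1.36 on the log2 scale (adjusted p = 4.82e-06, edgeR). With AZD it fell, at -0.38 (adjusted p = 0.0146). Of all genes tested, 4.66% were higher and 3.66% lower with Ento, and 9.57% and 12.7% with AZD. With Ento+AZD these shares were 19.2% and 20.8%.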
